A study of Mus musculus with 6 samples.

Results

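Nuclear receptors and the coregulators that bind them were examined by name in the liver of mice fed a high fat diet for 2 days. The list holds 46 genes, 40 receptors and 6 coregulators. It was drawn up from gene names, with earlier results of these data known. Of the 46, 44 were measured by a probe set that the platform annotation gives a single symbol, out of 19938 genes tested. The receptor Nr2e3 and the corepressor Ncor1 were not analysed here. Each of the 44 genes had 1 probe set of this kind.

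Total RNA came from frozen liver of C57BL/6 mice, an inbred laboratory strain, that ate a regular diet (RD) or a high fat diet (HFD) freely for 2 days. Each diet had 3 biological replicates and 1 array per replicate, so 6 arrays were compared. The titles of the arrays share a suffix, NI, whose meaning was not found, so a condition common to both diets cannot be named, and diet composition, age and sex were not stated in the labels. The tissue is whole liver, in which fewer cells of a type and less RNA per cell cannot be told apart.

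Nuclear receptors are transcription factors that carry a DNA-binding domain with zinc fingers and, in most of them, a pocket for a small lipid-soluble ligand such as a steroid, a retinoid, thyroid hormone, a fatty acid or a drug. Many bind DNA as heterodimers with a retinoid X receptor (RXR), and most recognise copies of the letters AGGTCA in different spacings. Without ligand they tend to hold corepressors, and with ligand they recruit coactivators. In the liver they set the programmes of fatty acid oxidation, drug clearance, bile acid handling, glucose output and the daily rhythm of metabolism.

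The labelled tissue was checked first. All 9 hepatocyte markers lay in the bright part of the arrays, from the 95.3th percentile of RD signal for Asgr1 upwards, and 0 of 9 passed the test (limma; 0 at an unadjusted p under 0.05). Their mean log2 signal was 13.84 to 13.85 in RD and 13.82 to 13.88 in HFD. Many of them lay near the highest value on any array, 14.86, such as Alb at 14.42 in RD. Whether the share of hepatocytes changed was not tested. Markers of other cell types did move with the diet. Of 8 markers of Kupffer cells, the resident macrophages, 5 rose, and their mean log2 signal was 9.68 to 9.74 in RD and 10.04 to 10.58 in HFD. All 4 measured cholangiocyte (bile duct cell) markers, Epcam, Krt19, Sox9 and Krt7, rose, with a mean of 7.45 to 7.53 in RD and 7.89 to 8.09 in HFD. Among these 9 calls, that of the Kupffer marker Cd5l was kept whichever array was left out; the others were lost without at least 1 array. None of the 8 stellate cell and 7 sinusoidal endothelial markers passed in limma (0 and 0 at an unadjusted p under 0.05). The part of the Kupffer and cholangiocyte markers in the receptor values below was not tested.

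After 2 days of HFD, most of these genes kept their level to within a small difference. Of 44 genes, 2 rose, the corepressor Nrip1 and the orphan receptor Nr6a1, and 2 fell, the fatty acid receptor Ppara and the drug receptor Nr1i3 (limma, Benjamini-Hochberg adjusted p under 0.05 over all genes). No call reached a 1.5-fold change, the largest being Nrip1 at 1.40-fold. The share called was 9.09%, against 5.35% of all genes tested. Among the 32 genes with an RD signal above the median of all genes it was 12.5%, against 8.95% of all genes in that bright part, so the share lies near the background. The median difference was -0.01 on the log2 scale, as many genes had a positive as a negative difference (22 and 22), and the median over all genes was -0.0029.

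A further 10 genes had an unadjusted p under 0.05 without passing. That makes 14 of 44, or 31.8%, against 19.7% of all genes at that level. The values of the diets did not overlap for 17 of the 44, that is 38.6%, against 25.7% of all genes tested. Brighter genes passed both criteria more often. Of the 32 listed genes with an RD signal above the median of all genes, 13 had an unadjusted p under 0.05. That is 40.6%, against 28.8% of all genes that bright. The diets did not overlap for 16 of the 32, that is 50%, against 36.9%. For 37 of the 40 genes that did not pass, the 95% interval of the difference (moderated, from limma) lay inside ±0.5 on the log2 scale. When 1 array was left out, 0 to 2 genes rose and 0 fell, as told for each gene below.

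**Figure D1:**
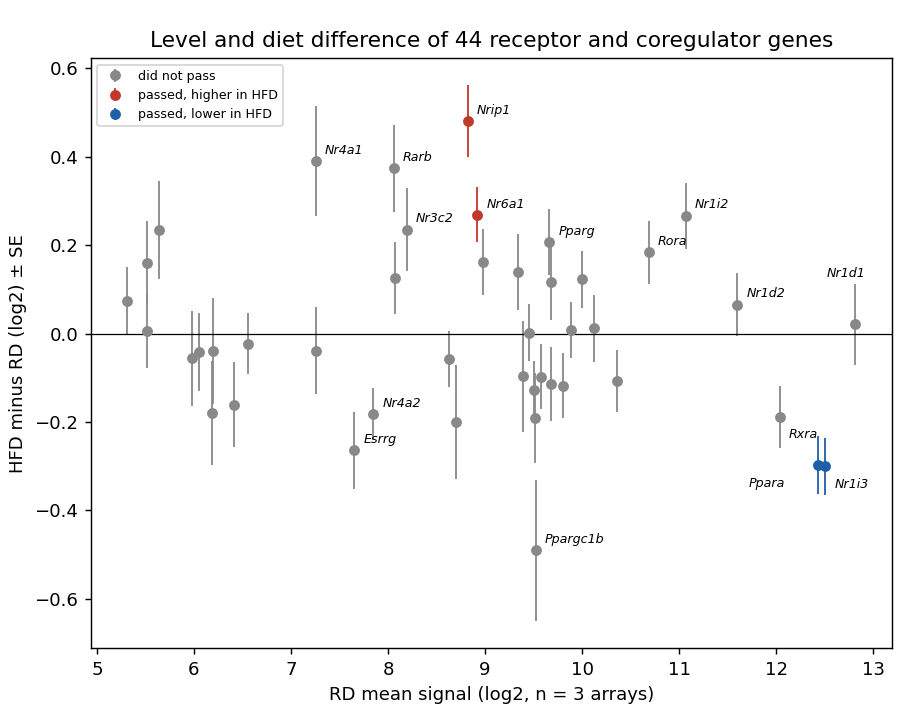
Mean log2 signal in RD (x axis, n = 3 arrays) against the difference HFD minus RD with its SE (y axis, log2) for the 44 genes; colour marks the 2 that rose and the 2 that fell. Ppara and Nr1i3 sit side by side near the bright end at -0.30, Nrip1 and Nr6a1 lie in the middle of the signal range, and Ppargc1b has the largest difference, -0.49, with a wide SE.

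By signal in RD liver, the brightest were Nr1d1 at 12.82 ± 0.14 (SD, n = 3), Nr1i3 at 12.51 ± 0.06, Ppara at 12.43 ± 0.07, Rxra at 12.04 ± 0.09 and Nr1d2 at 11.60 ± 0.04 (log2 signal). They were followed by Nr1i2 at 11.07, Rora at 10.69, Thrb at 10.36, Nr3c1 at 10.12 and Ncoa3. In this order the RD arrays of Nr1i3 and Ppara overlapped, at 12.46 to 12.57 and 12.38 to 12.50. At the dim end, 12 of the 44 had an RD signal below the median of all genes. The dimmest were Hnf4g at 5.31, Nr0b1 and Nr4a3 at 5.52, and Vdr, the vitamin D receptor, at 5.64. Probe sets differ in how strongly they bind, so this is an order of signals and not of transcript numbers, and detection calls were not used here.

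The 250 bases before and 50 bases after the start of the 4 genes that passed are shown so that those that fell and those that rose can be compared (RefSeq, GRCm38.p6, 5′ to 3′ on the gene's strand). Capitals mark matches on either strand to 8 motifs: the receptor half-site AGGTCA, its direct repeats AGGTCANAGGTCA and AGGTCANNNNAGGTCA, the oestrogen-related receptor element TCAAGGTCA, the clock E-box CACGTG, the D-box TTATGTAA, the cAMP response element TGACGTCA and the antioxidant element core TGACNNNGC.
Ppara, chr15:85735526-85735825, plus strand: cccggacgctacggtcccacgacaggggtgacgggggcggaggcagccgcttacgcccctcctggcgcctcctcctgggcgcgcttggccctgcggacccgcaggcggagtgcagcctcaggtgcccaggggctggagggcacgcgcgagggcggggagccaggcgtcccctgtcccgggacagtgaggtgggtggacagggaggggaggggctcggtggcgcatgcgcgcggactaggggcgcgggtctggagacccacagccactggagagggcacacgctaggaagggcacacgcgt
Nr1i3, chr1:171213720-171214019, plus strand: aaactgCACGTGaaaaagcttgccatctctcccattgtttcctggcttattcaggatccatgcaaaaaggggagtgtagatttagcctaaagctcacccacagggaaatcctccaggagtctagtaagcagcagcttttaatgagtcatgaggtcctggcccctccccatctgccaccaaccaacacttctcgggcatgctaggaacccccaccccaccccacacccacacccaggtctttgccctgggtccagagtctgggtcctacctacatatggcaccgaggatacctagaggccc
Nrip1, upstream start, chr16:76373778-76374077, minus strand: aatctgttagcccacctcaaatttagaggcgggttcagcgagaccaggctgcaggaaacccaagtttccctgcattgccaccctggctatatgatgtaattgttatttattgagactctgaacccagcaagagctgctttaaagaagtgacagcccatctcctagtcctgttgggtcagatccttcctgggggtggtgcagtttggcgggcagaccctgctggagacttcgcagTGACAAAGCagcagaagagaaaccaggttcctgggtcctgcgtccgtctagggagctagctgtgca
Nrip1, downstream start, chr16:76373000-76373299, minus strand: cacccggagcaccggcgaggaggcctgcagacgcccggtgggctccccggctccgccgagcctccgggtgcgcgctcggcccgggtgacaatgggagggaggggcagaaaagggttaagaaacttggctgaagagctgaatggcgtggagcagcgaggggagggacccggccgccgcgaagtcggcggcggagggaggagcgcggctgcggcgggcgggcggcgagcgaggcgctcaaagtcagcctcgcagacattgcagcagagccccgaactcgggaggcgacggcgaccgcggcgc
Nr6a1, upstream start, chr2:38926412-38926711, minus strand: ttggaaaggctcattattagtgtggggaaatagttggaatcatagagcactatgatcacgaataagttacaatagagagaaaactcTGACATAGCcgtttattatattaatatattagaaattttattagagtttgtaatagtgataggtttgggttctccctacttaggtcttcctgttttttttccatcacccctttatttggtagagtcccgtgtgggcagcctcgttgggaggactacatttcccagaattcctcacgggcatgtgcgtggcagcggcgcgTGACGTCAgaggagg
Nr6a1, downstream start, chr2:38784466-38784765, minus strand: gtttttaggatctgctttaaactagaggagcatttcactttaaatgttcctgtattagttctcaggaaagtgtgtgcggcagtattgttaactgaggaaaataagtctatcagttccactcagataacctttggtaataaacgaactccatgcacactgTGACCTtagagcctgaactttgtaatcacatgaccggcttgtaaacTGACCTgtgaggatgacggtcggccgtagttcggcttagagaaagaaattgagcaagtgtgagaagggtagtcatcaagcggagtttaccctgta

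The half-site was matched at 2 places before the downstream start of Nr6a1 and in none of the other 5 windows; the longer receptor motifs contain it. Of all 32851 promoter windows from RefSeq, 16.3% hold it, as do 10 of the 56 windows of the 37 listed genes found there (17.9%). The window of Nr1i3 holds 1 E-box, a motif found in 7.15% of all windows. A cAMP response element lies just after the upstream start of Nr6a1 (1.79% of all windows), and the antioxidant core was matched in 1 window of Nrip1 and 1 of Nr6a1 (12.4% of all windows). In the Ppara window none of the 8 motifs was matched. The direct repeats are rare, at 0.0396% and 0.0152% of all windows, the oestrogen-related element and the D-box are in 0.423% and 0.938%, and none of the 56 windows holds any of these 4. A match is a match of letters only.

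**Figure D2:**
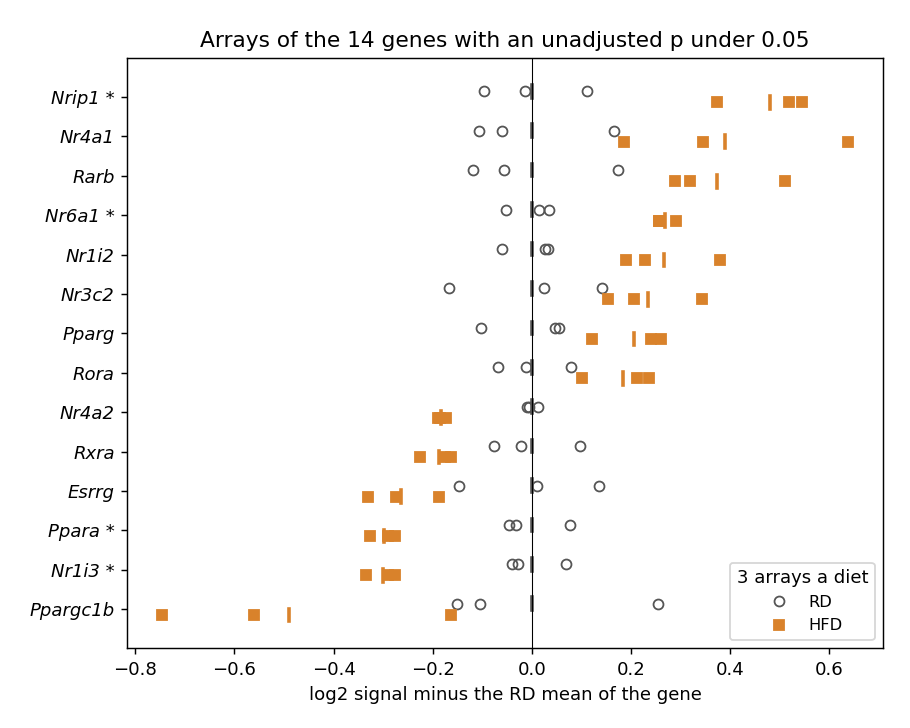
Each array's log2 signal minus the RD mean of that gene (x axis) for the 14 genes with an unadjusted p under 0.05; open circles are the 3 RD arrays, squares the 3 HFD arrays, short bars the means, and asterisks mark the 4 genes that passed. The diets do not overlap for any of the 14, and Ppargc1b has the most scattered HFD arrays.

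Of the 3 receptors for fatty acids, the PPARs, Ppara fell and the other two did not pass. Ppara (probe set 10425987), which drives fatty acid oxidation and ketone body production in hepatocytes, had log2 signals of 12.38, 12.40 and 12.50 in RD and 12.10, 12.15 and 12.14 in HFD. All HFD arrays lay below all RD arrays. It fell by 0.30 ± 0.07 on the log2 scale (SE; limma adjusted p = 0.039), a 1.23-fold lower signal. No removal of 1 array kept the call (adjusted p = 0.085 to 0.115), which was lost too when every row of the table was fitted together (adjusted p = 0.105). Pparg, the fat storage receptor, had signals of 9.72, 9.56 and 9.71 in RD and 9.92, 9.90 and 9.78 in HFD. Its HFD arrays were all higher, and the difference of 0.21 ± 0.08 did not pass (limma adjusted p = 0.17). The signal of Pparg relative to that of Ppara on the same array was -2.76 ± 0.09 in RD and -2.26 ± 0.09 in HFD (log2, SD, n = 3), a comparison chosen after the values were seen. Ppard, expressed in many tissues, had a difference of 0.14 ± 0.09 with overlapping arrays.

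Genes known as targets of PPAR alpha did not move one way. Of 21 measured of 24 listed, 3 rose and 1 fell, and the median difference was 0.02. At an unadjusted p under 0.05 in limma, 4 were higher and 7 lower. Ehhadh, the peroxisomal bifunctional enzyme, rose by 1.05 ± 0.10 and the pyruvate dehydrogenase kinase Pdk4 by 1.01 ± 0.19, while Cpt1a, which admits fatty acids to mitochondria, fell by 0.33 ± 0.06 on the log2 scale. The third riser was the thiolase Acaa1b (0.31 ± 0.07), named after its values were seen. When 1 array was left out, Ehhadh passed each time, Pdk4 was lost without each single RD array (adjusted p up to 0.084), and Cpt1a and Acaa1b were lost each time (adjusted p up to 0.124). The risers numbered 1 without each single RD array, and 0 genes fell without any 1 array.

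Among the receptors for foreign compounds, Nr1i3 fell and its relative Nr1i2 was higher without passing. Nr1i3 (probe set 10351533) encodes CAR, which switches on drug-metabolizing enzymes. Its log2 signals were 12.48, 12.57 and 12.46 in RD and 12.22, 12.17 and 12.23 in HFD, with no overlap, a fall of 0.30 ± 0.06 (SE; limma adjusted p = 0.036). It ended on removing any single array (adjusted p = 0.072 to 0.120), with each array centred on its median (adjusted p = 0.057) and with every row fitted (adjusted p = 0.101). Nr1i2 encodes PXR, a sensor of drugs and bile acids. It had signals of 11.01, 11.10 and 11.09 in RD and 11.29, 11.26 and 11.45 in HFD. The groups were apart, with a difference of 0.27 ± 0.07 (limma adjusted p = 0.085). That difference passed with an intensity trend and robust prior (adjusted p = 0.036) and among the brighter genes only (adjusted p = 0.040). Relative to Nr1i3 on the same array, the Nr1i2 signal was -1.44 ± 0.06 in RD and -0.87 ± 0.08 in HFD (log2, SD, n = 3), again chosen after the values were seen.

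Of 17 measured targets of CAR and PXR (22 listed), 5 rose and 0 fell, with a median difference of 0.23. On the log2 scale the stress-inducible Gadd45b was 2.07 ± 0.15 higher, the P-glycoprotein gene Abcb1a 1.86 ± 0.16 and the carboxylesterase Ces2a 0.95 ± 0.09. The others were Cyp2c55 and the glutathione transferase Gstm1, named after their values were seen. All but Gstm1 passed in each fit of 5 arrays, and Gstm1 in none of them (adjusted p up to 0.138). These genes were already known to rise in these data when the list was drawn up. In the whole list 15 differences were positive and 2 negative. Over all 19938 genes tested, 9805 were positive and 10133 negative. Over the 9969 genes with an RD signal above the median, 5417 were positive and 4552 negative. The same background holds for the sign counts of the lists below. Cyp2b10 differed by 0.55 ± 0.52, Cyp2b9 by -0.79 ± 1.01 and Cyp2b13 by 0.14 ± 0.20, each with overlapping diets and without passing. Cyp3a11 was higher by 0.18 ± 0.06 without overlap and did not pass (limma adjusted p = 0.15). The Cyp2b genes and Cyp3a11 were named after their values were seen. The activity of CAR and PXR was not tested.

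The retinoid receptors, which bind vitamin A derivatives, gave no call in limma (0 of 6; 2 at an unadjusted p under 0.05). Rxra is the common heterodimer partner of the PPARs, CAR and PXR. It had signals of 12.02, 12.14 and 11.96 in RD and 11.86, 11.88 and 11.82 in HFD. The HFD arrays were all lower, by 0.19 ± 0.07 (limma adjusted p = 0.18). Rarb, a retinoic acid receptor that is itself induced by retinoic acid, had signals of 8.002, 7.94 and 8.23 in RD and 8.35, 8.38 and 8.57 in HFD. They did not overlap, and the difference of 0.37 ± 0.10 just missed the threshold (limma adjusted p = 0.070). It passed without RD replicate 3 (adjusted p = 0.046), with each array centred on its median (adjusted p = 0.043), among the brighter genes only (adjusted p = 0.039) and with an intensity trend and robust prior (adjusted p = 0.049). Rara, Rxrb and Rxrg had differences of -0.19, -0.10 and -0.20 and Rarg one of 0.13, each with an interval that includes 0.

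Retinoic acid target genes gave 3 risers and 1 faller among 14 measured of 16 listed, with a median of -0.03. The retinol dehydrogenase Dhrs9 rose by 1.49 ± 0.16 and the retinoic acid hydroxylase Cyp26a1 by 1.99 ± 0.22. Rarres1, named for its response to retinoids, fell by 0.79 ± 0.10 on the log2 scale. These 3 passed whichever array was left out, while Tgm2, a transglutaminase named after its values were seen (0.49 ± 0.10), kept its call on removal of HFD replicate 3 and of no other array (adjusted p up to 0.101).

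The thyroid hormone and vitamin D receptors gave no call (0 of 3 in limma; 0 at an unadjusted p under 0.05). Thrb, the main thyroid hormone receptor of the liver, had signals of 10.43, 10.32 and 10.33 in RD and 10.29, 10.30 and 10.17 in HFD. Its difference was -0.11, with a 95% interval from -0.27 to 0.05. Thra had a difference of 0.16, from -0.01 to 0.33. Vdr stood at 5.63 or 5.64 on every RD array and at 6.09, 5.62 and 5.90 on the HFD arrays, which overlap RD; its difference was 0.23 ± 0.11. All 8 measured thyroid hormone targets (10 listed) had a negative difference, 3 fell and the median was -0.27. Dio1, the deiodinase that activates thyroid hormone, fell by 1.40 ± 0.11, the malic enzyme Me1 by 0.47 ± 0.07 and the glycerol-3-phosphate dehydrogenase Gpd2 by 0.35 ± 0.06 on the log2 scale. Dio1 passed whichever array was left out, Me1 was lost without RD replicate 1 (adjusted p = 0.054), and Gpd2 was kept only without RD replicate 3 or HFD replicate 3 (adjusted p up to 0.077). The count was 1 without RD replicate 1. Of 5 measured vitamin D targets (6 listed) none passed in limma (0 at an unadjusted p under 0.05), and the median was -0.08. All 5 were dim, with RD signals of 4.84 to 6.96, below the median of all genes, and Cyp24a1 was not measured. They therefore say little about the activity of the vitamin D receptor.

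The clock-linked receptors stayed close to their RD level. Nr1d1 and Nr1d2 encode REV-ERB alpha and beta, heme-binding repressors that peak in the day in mouse liver, and the RORs activate from the same sites. Nr1d1 had signals of 12.69, 12.96 and 12.80 in RD and 12.75, 12.96 and 12.80 in HFD. The arrays of the diets were interleaved, with a difference of 0.02 and a 95% interval from -0.19 to 0.23; its sign turned without RD replicate 1 or HFD replicate 2 (-0.04 for each). Nr1d2 had signals of 11.64, 11.56 and 11.60 in RD and 11.65, 11.58 and 11.76 in HFD, also overlapping, with an interval from -0.10 to 0.23. Rora was higher on every HFD array, 10.79, 10.92 and 10.90 against 10.76, 10.62 and 10.67, by 0.18 ± 0.07 without passing (limma adjusted p = 0.20). Rorb was dim, at 5.98 in RD, with a difference of -0.06. The gene bodies of Nr1d1 and Thra overlap in the RefSeq annotation.

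The list of clock genes linked to these receptors gave 4 falls and 0 rises among 15 measured of 16 listed. Of the 15 differences 13 were negative (median -0.21), against 10133 of all 19938 genes tested. The output factor Hlf fell by 0.58 ± 0.07, E2f8 by 1.05 ± 0.15 and the output factor Dbp by 0.39 ± 0.08 on the log2 scale. Per3, a period gene named after its values were seen, fell by 0.31 ± 0.07. Hlf and E2f8 passed whichever array was left out, whereas Dbp and Per3 were lost each time (adjusted p up to 0.129), so the count was 2 without any 1 array. Clock and Bhlhe41 were the 2 with a positive difference, 0.31 ± 0.13 and 0.26 ± 0.11, and did not pass. Arntl differed by -0.05 ± 0.09 with overlapping diets. All of these were named after their values were seen. The labels do not state the time of day at which the livers were taken.

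The steroid receptors gave no call (0 of 5 in limma; 1 at an unadjusted p under 0.05). Nr3c1, the glucocorticoid receptor, had signals of 10.06, 10.12 and 10.18 in RD and 10.13, 10.24 and 10.03 in HFD. The diets overlapped, with a difference of 0.01 and an interval from -0.16 to 0.18; the sign turned with quantile normalization (-0.01) and without RD replicate 1 (-0.02) or HFD replicate 2 (-0.04). Nr3c2, the mineralocorticoid receptor, had signals of 8.34, 8.03 and 8.22 in RD and 8.40, 8.54 and 8.35 in HFD. The HFD arrays lay just above, by 0.24 ± 0.09 (limma adjusted p = 0.21). Esr1, the oestrogen receptor of the liver, differed by -0.10 ± 0.13, and Esr2 and Pgr were dim, at 6.06 and 6.19 in RD, with differences of -0.04 each.

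Of 16 measured glucocorticoid targets (17 listed), 2 rose and 2 fell, and 13 differences were negative (median -0.18). G6pc, the glucose phosphatase of gluconeogenesis, fell by 0.65 ± 0.09, the kinase Sgk1 rose by 0.38 ± 0.07 and the acute phase lipocalin Lcn2 by 1.16 ± 0.23. The other fall was that of the metallothionein Mt1 (-1.29 ± 0.28), named after its values were seen. G6pc passed whichever array was left out. Sgk1 was kept without RD replicate 3 or HFD replicate 2 alone, Lcn2 was kept without HFD replicate 2 alone, and Mt1 was lost without each single RD array (adjusted p up to 0.122). The risers numbered 2 without HFD replicate 2, 1 without RD replicate 3 and 0 without each other array, and the fallers 1 without each single RD array.

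The oestrogen-related receptors, which act with PGC-1 coactivators on mitochondrial genes, all had negative differences, and none passed in limma (0 of 3; 1 at an unadjusted p under 0.05). Esrrg had signals of 7.50, 7.79 and 7.66 in RD and 7.46, 7.32 and 7.38 in HFD. The diets were apart by little, at -0.26 ± 0.09 (limma adjusted p = 0.13). Esrra was steadier, at 8.62, 8.58 and 8.68 in RD and 8.59, 8.55 and 8.57 in HFD, with a difference of -0.06 ± 0.06. Esrrb was dim (6.42 in RD), with a difference of -0.16. Of 15 measured targets of these receptors (16 listed), 3 fell and 0 rose, and 14 had a negative difference (median -0.15). They were the fumarase Fh1 (-0.45 ± 0.08), the succinate dehydrogenase subunit Sdhb (-0.30 ± 0.06) and cytochrome c, Cycs (-0.30 ± 0.06). Fh1 was lost without RD replicate 2 or HFD replicate 2, and Sdhb and Cycs without any 1 array (adjusted p up to 0.119). The count was 1 without each single array other than these, and 0 without RD replicate 2 or HFD replicate 2.

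The NR4A receptors are immediate early genes, induced rapidly by signals such as glucagon. They gave no call (0 of 3 in limma; 2 at an unadjusted p under 0.05) and their differences had both signs. Nr4a1 had signals of 7.42, 7.20 and 7.15 in RD and 7.60, 7.90 and 7.44 in HFD. The nearest arrays of the diets were almost level, and the difference was 0.39 ± 0.12 (limma adjusted p = 0.12). Nr4a2 was among the steadiest, at 7.86, 7.84 and 7.84 in RD and 7.68, 7.66 and 7.66 in HFD. It was lower on each HFD array, by 0.18 ± 0.06 (limma adjusted p = 0.13), and passed among the brighter genes only (adjusted p = 0.0496). Nr4a3 was near the dim end, with a difference of 0.16 ± 0.09. None of 11 other immediate early genes driven by the factor CREB passed in limma (5 higher and 1 lower at an unadjusted p under 0.05), led by Fosb at 0.54 ± 0.13 (limma adjusted p = 0.055; 0.045 without HFD replicate 3).

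Among the remaining orphan receptors, Nr6a1 (probe set 10482249) rose. It encodes germ cell nuclear factor, a repressor known from germ cells and the early embryo. Its log2 signals were 8.96, 8.94 and 8.87 in RD and 9.18, 9.18 and 9.21 in HFD. The groups were tight and apart by 0.27 ± 0.06 (SE; limma adjusted p = 0.046), a 1.20-fold higher signal. It ended on removing any single array (adjusted p = 0.106 to 0.122), with quantile normalization (adjusted p = 0.062) and with every row fitted (adjusted p = 0.112). Its neighbour on the chromosome, Nr5a1, the steroidogenic factor, had overlapping arrays and a difference of -0.04 ± 0.10. Nr0b1, a receptor without a DNA-binding domain, was dim and differed by 0.01. None of the 7 measured NR2 receptors passed in limma (0 at an unadjusted p under 0.05). Nr2f6 was the brightest of them, at 9.73, 9.89 and 9.77 in RD and 9.71, 9.74 and 9.60 in HFD, and Nr2e1 had the largest difference, -0.18 ± 0.12. Both overlapped between the diets.

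Of the coregulators, Nrip1 (probe set 10440406) gave the largest rise of all 44 genes. It encodes RIP140, a corepressor that many receptors recruit when they bind ligand and that restrains oxidative metabolism. Its log2 signals were 8.81, 8.72 and 8.93 in RD and 9.37, 9.20 and 9.34 in HFD. Every HFD array was above every RD array, by 0.48 ± 0.08 on average (SE; limma adjusted p = 0.016). The call was kept without RD replicate 3 or HFD replicate 2 and lost without each other single array (adjusted p = 0.051 to 0.065), as it was with every row fitted (adjusted p = 0.065). Ppargc1b, a coactivator of the PGC-1 family, had signals of 9.42, 9.78 and 9.37 in RD and 8.77, 8.96 and 9.36 in HFD. HFD replicate 3 came within 0.01 of the lowest RD array, and the difference of -0.49 ± 0.16 did not pass (limma adjusted p = 0.13). Its size was the largest of all 44 genes.

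The p160 coactivators, which bind liganded receptors directly, differed little. Ncoa3 had signals of 10.01, 9.94 and 10.04 in RD and 10.16, 10.10 and 10.10 in HFD, a difference of 0.12 ± 0.06 without overlap (limma adjusted p = 0.34). Ncoa1 and Ncoa2 overlapped, with differences of 0.00 and 0.01 and 95% intervals from -0.15 to 0.15 and from -0.14 to 0.15. Of 18 other coactivators 0 rose and 1 fell, Lpin1, a phosphatidate phosphatase that also acts with PGC-1, by 0.69 ± 0.08 on the log2 scale, whichever array was left out. Of 11 measured other corepressors (12 listed) 1 rose, Tbl1x, a subunit of the complex that holds NCoR, by 0.31 ± 0.07, a call lost without any 1 array (adjusted p up to 0.138). Among 5 measured receptors outside the list (8 named), Nr0b2 rose and Nr1h4 fell, each whichever array was left out. Nr0b2 was higher by 1.13 ± 0.12 on the log2 scale, or 2.20-fold (limma adjusted p = 0.0023). Nr1h4 differed by -0.73 ± 0.10, or 1.66-fold lower (limma adjusted p = 0.0078).

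**Figure D3:**
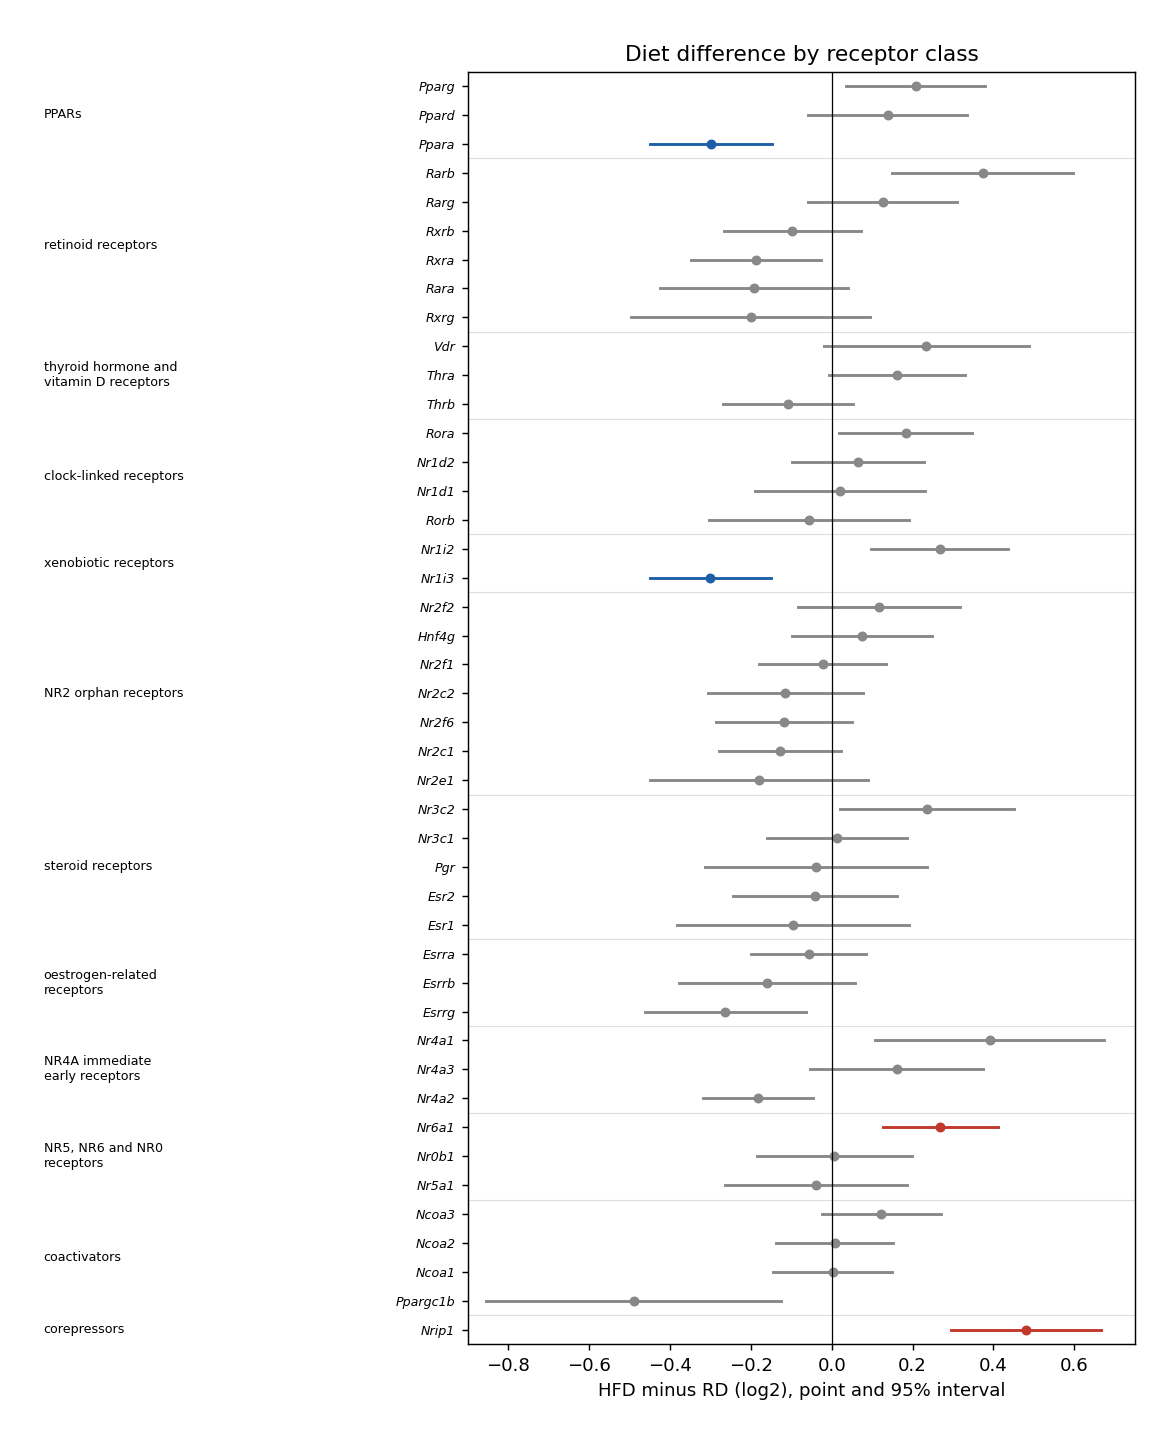
Difference HFD minus RD (x axis, log2) with its moderated 95% interval for each of the 44 genes, grouped by class; red marks the 2 genes that rose and blue the 2 that fell. All 4 differences that passed lie within ±0.5, and 30 of the 40 grey intervals include 0.

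**Figure D4:**
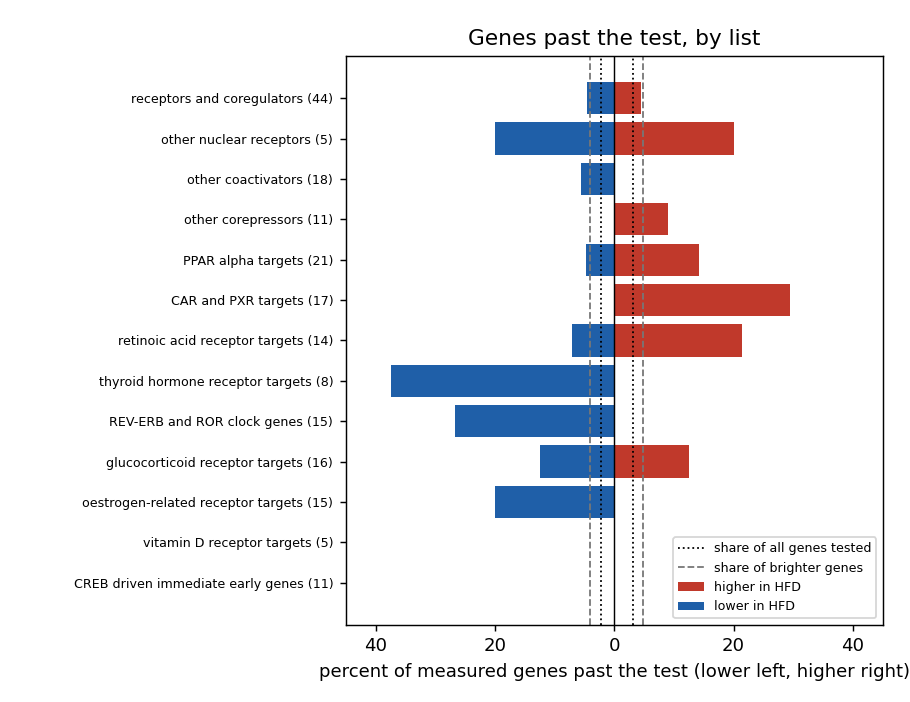
Percent of measured genes past the test in each list (number measured in brackets), with falls to the left and rises to the right; dotted lines mark the shares of all genes tested, 2.24% lower and 3.11% higher, and dashed lines those of the genes with an RD signal above the median, 4.10% lower and 4.85% higher. Thyroid hormone, clock and oestrogen-related receptor targets hold falls only, and CAR and PXR targets rises only. The other coactivators also hold falls only (1 gene), and the other corepressors rises only (1 gene). All of the lists were drawn up with earlier results of these data known. Some lists share genes, such as Klf9, Per1 and Dusp1, so they are not independent of each other.

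All values are transcript signals, and the amount, ligand and location of the receptor proteins were not measured.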

How the data were processed

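The deposited table holds log2 values, 1 per probe set and array, for 6 arrays of total RNA labelled with a GeneChip kit, per the labels' protocols. How the authors summarised and normalised them is not given in the sources used, and base 2 was inferred from values of 2.28 to 14.86. Array medians were 7.06 to 7.11. Of 35512 rows, 21789 have 1 gene symbol in the platform annotation, which can be old; the brightest probe set per gene left 19938 genes. Diets were compared with limma 3.58.1 (R 4.3.3; diet alone, eBayes, two-sided), adjusted over all genes, threshold 0.05. The number of arrays limits the precision. The steps were checked on simulated data. The differences added there were larger than those of the listed genes that passed, so the check does not cover calls of their size. Members, classes, lists and alternatives were chosen with earlier results of these data known. Named are genes that passed, those with an unadjusted p under 0.05, in each class the brightest and the most changed, the 10 brightest, and up to 3 genes per list by p; others were chosen after their values were seen.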

Additional observations from a re-analysis of the deposited data

How the results depend on the processing

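The count of receptor and coregulator genes that rose, 2 as reported, was 1 with quantile normalization, 4 among the brighter genes only, 0 with every row of the table fitted, 4 with an intensity trend and robust prior and 1 with the replicate block. The count that fell, 2 as reported, was 1 with median centring, 0 with every row fitted and 0 with the replicate block. Without 1 array, 0 to 2 genes rose and 0 fell, and the median difference lay between -0.03 and 0.01. Sign changes were seen for Nr1d1 and Nr3c1, whose differences without 1 array ran from -0.0425 to 0.0923 and from -0.0397 to 0.0618, and for Nr3c1 with quantile normalization (-0.00925). With every row fitted, calls over all 19938 genes numbered 142 higher and 132 lower; the cause was not tested.

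The sample titles number the replicates without saying whether the numbers pair the arrays. Deviations of RD and HFD arrays of the same number correlated at -0.11, 0.00 and 0.12 across genes. Those of different numbers correlated at -0.12 to 0.13. With 3 arrays a diet, such values cannot decide whether the arrays were paired. With the replicate block, Nrip1 passed and Nr6a1, Ppara and Nr1i3 did not.

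List counts moved by over 1.5 times as follows. Risers among CAR and PXR targets went from 5 to 8 among the brighter genes and 9 with trend. Falls among oestrogen-related receptor targets went from 3 to 5 with either of these, 1 with median centring, and 0 with every row or the block. Clock falls went from 4 to 2 with every row or the block, and thyroid hormone target falls from 3 to 1 with every row. PPAR alpha target risers went from 3 to 1 with every row and falls from 1 to 2 among the brighter genes, 3 with trend, and 0 with every row or the block. Glucocorticoid target risers went from 2 to 0 with every row and 1 with trend or the block, and falls from 2 to 1 with every row. Corepressor risers went from 1 to 2 among the brighter genes or with trend and 0 with every row or the block; 1 fell with quantile normalization, brighter genes or trend. Immediate early risers went from 0 to 1 with median centring, brighter genes, trend, array weights or the block.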

Other observations

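The markers of T, B and NK cells did not pass in limma (0 of 6 measured; 0 at an unadjusted p under 0.05), but HFD replicate 1 stood apart with a mean log2 signal of 6.94 against 6.30 and 6.36 on the other HFD arrays and 6.35 to 6.47 in RD. The same array had the highest means of Kupffer cell markers (10.58 against 10.04 and 10.21) and cholangiocyte markers (8.09 against 7.92 and 7.89). Some of the listed genes were also highest on it, such as Vdr at 6.09 and Nrip1 at 9.37 (9.20 and 9.34 on the other HFD arrays). Others were highest on another array, such as Rarb at 8.57 on HFD replicate 3. These examples were chosen after their values were seen. Markers of neutrophils, which lay at 5.78 to 5.91 in RD, were at 5.77 to 5.89 in HFD.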
